A study of Aspergillus niger with 27 samples.

Results

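The genes described here are the 43 of 11846 gene models whose RNA was highest where colonies of the filamentous fungus Aspergillus niger lay on sugar beet pulp. They were selected by a rule on counts scaled with median-of-ratios size factors, called normalised counts below. A gene belonged if its mean on sugar beet pulp was at least 50 and at least 3 times the mean of either other substrate, glucose or wheat bran, and if sugar beet pulp was above both on each of 3 plates. Genes among the 20 largest counts of any library were to be left out, as were genes for which each wheat bran compartment lay at least 3-fold under each of compartments 1 to 6. Neither exclusion removed a gene, although with the wheat bran exclusion read on section averages 17 genes would remain. All 43 passed the filter on low counts of the test used below. The rule fixed the difference between substrates, which is given as a description with no test.

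Mycelium of A. niger was sampled from pie-plates, in which liquid medium in separate wedge-shaped compartments lies beneath a perforated membrane that hyphae cannot cross. Sugar beet pulp filled compartments 4 to 6, glucose compartments 1 to 3 and wheat bran compartments 7 to 9, and a single colony grew from the centre over all 9. The 3 plates, labelled A, B and C, were the replicates and gave 27 libraries, sequenced from full-length cDNA on an Ion Proton instrument. The labels give no strain, genotype or age of the colonies and do not say which numbered compartment of a substrate lies between its own kind and which lie next to a different substrate. No treatment was applied beyond the substrates, as far as the labels say.

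Sugar beet pulp is rich in pectin, a polysaccharide with a galacturonic acid backbone and side chains of arabinan and galactan. Aspergilli degrade it outside the cell with secreted polygalacturonases, lyases, esterases and side-chain hydrolases, and bring the released sugars in through transporters. In A. niger the activator GaaR and its repressor GaaX control galacturonic acid use, and glucose represses many such genes through CreA. The count table names genes by numbered IDs alone, and none of these IDs is in the gene table used here, so no member below is given a name or a role.

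Libraries held 12078576 to 20473260 counts on sugar beet pulp, 12822917 to 19406653 on glucose and 8006891 to 24501824 on wheat bran. The compartment 9 libraries stood apart, with 8006891 to 11847598 counts and 8103 to 9161 genes at 10 or more counts, against 12078576 to 24501824 counts and 9340 to 10771 such genes in the other 24 libraries.

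The 43 genes together took a small part of every library. On sugar beet pulp their share of all counts ran from 0.463% to 1.79%, with a median of 0.955%. On glucose it ran from 0.0248% to 0.263% with a median of 0.150%, and on wheat bran from 0.0131% to 0.312% with a median of 0.0630%. The 9 sugar beet pulp libraries thus lay above all 18 others, as the selection favours. Within the substrates the shares were uneven. The mean share was 0.503% ± 0.0514 for compartment 4, 0.974% ± 0.247 for compartment 5 and 1.31% ± 0.433 for compartment 6 (SD over 3 plates). Glucose compartments 1, 2 and 3 gave 0.168% ± 0.126, 0.0606% ± 0.0155 and 0.204% ± 0.0514, and wheat bran compartments 7, 8 and 9 gave 0.192% ± 0.105, 0.0608% ± 0.00554 and 0.0179% ± 0.00418. A share also depends on the other genes of the library. Summed normalised counts of the members kept the order within each substrate with a smaller gap, at 135964 ± 35733 in compartment 6 and 5410 ± 1664 in compartment 9. In bulk RNA, fewer hyphae that express a gene and less of its RNA per hypha cannot be told apart.

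**Figure D1:**
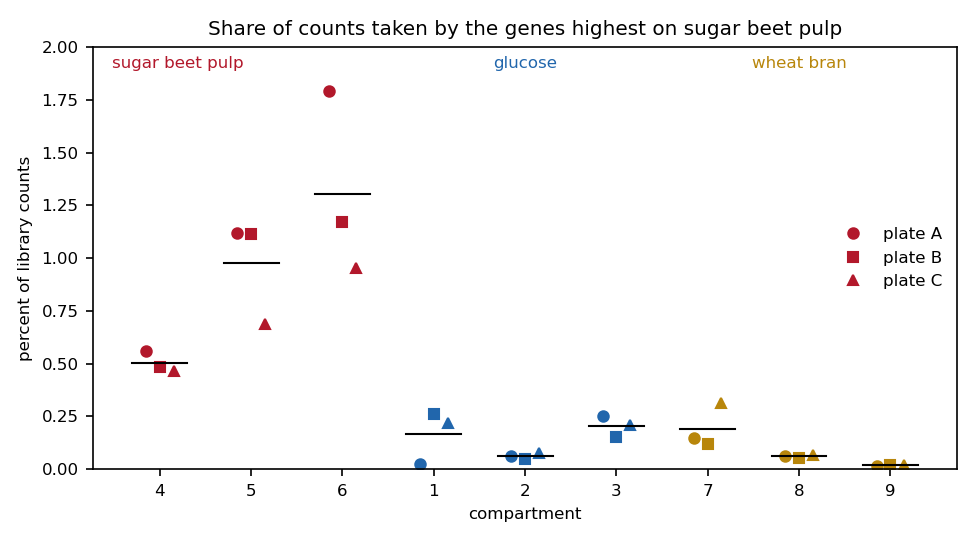
Percent of each library's counts taken by the 43 genes (vertical axis) in the 9 compartments (horizontal axis), with a symbol per plate, colours for substrates and a bar at the mean of 3 plates. The mean is 1.31% in sugar beet pulp compartment 6, 0.503% in compartment 4 and 0.0179% in wheat bran compartment 9.

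Members differed in how far sugar beet pulp stood above the other substrates. The fold over glucose ran from 3.02 to 23.6 with a median of 4.46, and the fold over wheat bran from 3.04 to 53.5 with a median of 5.37. It was 10 or more over glucose for 5 members and over wheat bran for 6. Of the 43, 26 had glucose as their second substrate and 17 had wheat bran. The order of glucose and wheat bran differed between plates for 18 members, was glucose first on all 3 plates for 21 and wheat bran first on all 3 for 4. Of the 43, 8 had no glucose or wheat bran library above their lowest sugar beet pulp library. The rule used these values, and no share of all genes is given beside this count.

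The 4 members with the largest fold over the higher of the other substrates were NRRL3_2835, NRRL3_8325, NRRL3_660 and NRRL3_5261. NRRL3_2835 averaged 8563 ± 4070 normalised counts on sugar beet pulp, against 999.6 ± 330 on glucose and 584 ± 347 on wheat bran (SD, n = 3 plates), 8.57-fold over glucose. NRRL3_8325 averaged 510 ± 449 on sugar beet pulp, against 39.8 ± 12.7 on glucose and 75.2 ± 42.4 on wheat bran. Its sugar beet pulp libraries ranged from 83.4 to 1813. Plate A was the highest of the plates on sugar beet pulp for both genes. NRRL3_660 averaged 672 ± 629 on sugar beet pulp, against 28.5 ± 7.24 on glucose and 103 ± 78.4 on wheat bran. The fold of 23.6 over glucose was the largest of the 43. NRRL3_5261 was a low-count gene, with 53.2 ± 20.9 on sugar beet pulp, against 8.73 ± 0.238 on glucose and 6.63 ± 0.301 on wheat bran.

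Among the 4 members with the highest normalised counts on sugar beet pulp, the spread between plates on sugar beet pulp was small for NRRL3_3202 and NRRL3_3144. Counts also grow with transcript length, which is not known here, so these genes are not ranked against each other. NRRL3_3202 averaged 12722 ± 407 on sugar beet pulp, against 3642 ± 157 on glucose and 2911 ± 660 on wheat bran (SD, n = 3 plates). NRRL3_10866 averaged 12317 ± 3722 on sugar beet pulp, against 2686 ± 1110 on glucose and 1303 ± 758 on wheat bran. NRRL3_3144 averaged 6957 ± 906 on sugar beet pulp, against 1711 ± 1156 on glucose and 1545 ± 854 on wheat bran. The fourth of them was NRRL3_2835, given above.

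**Figure D2:**
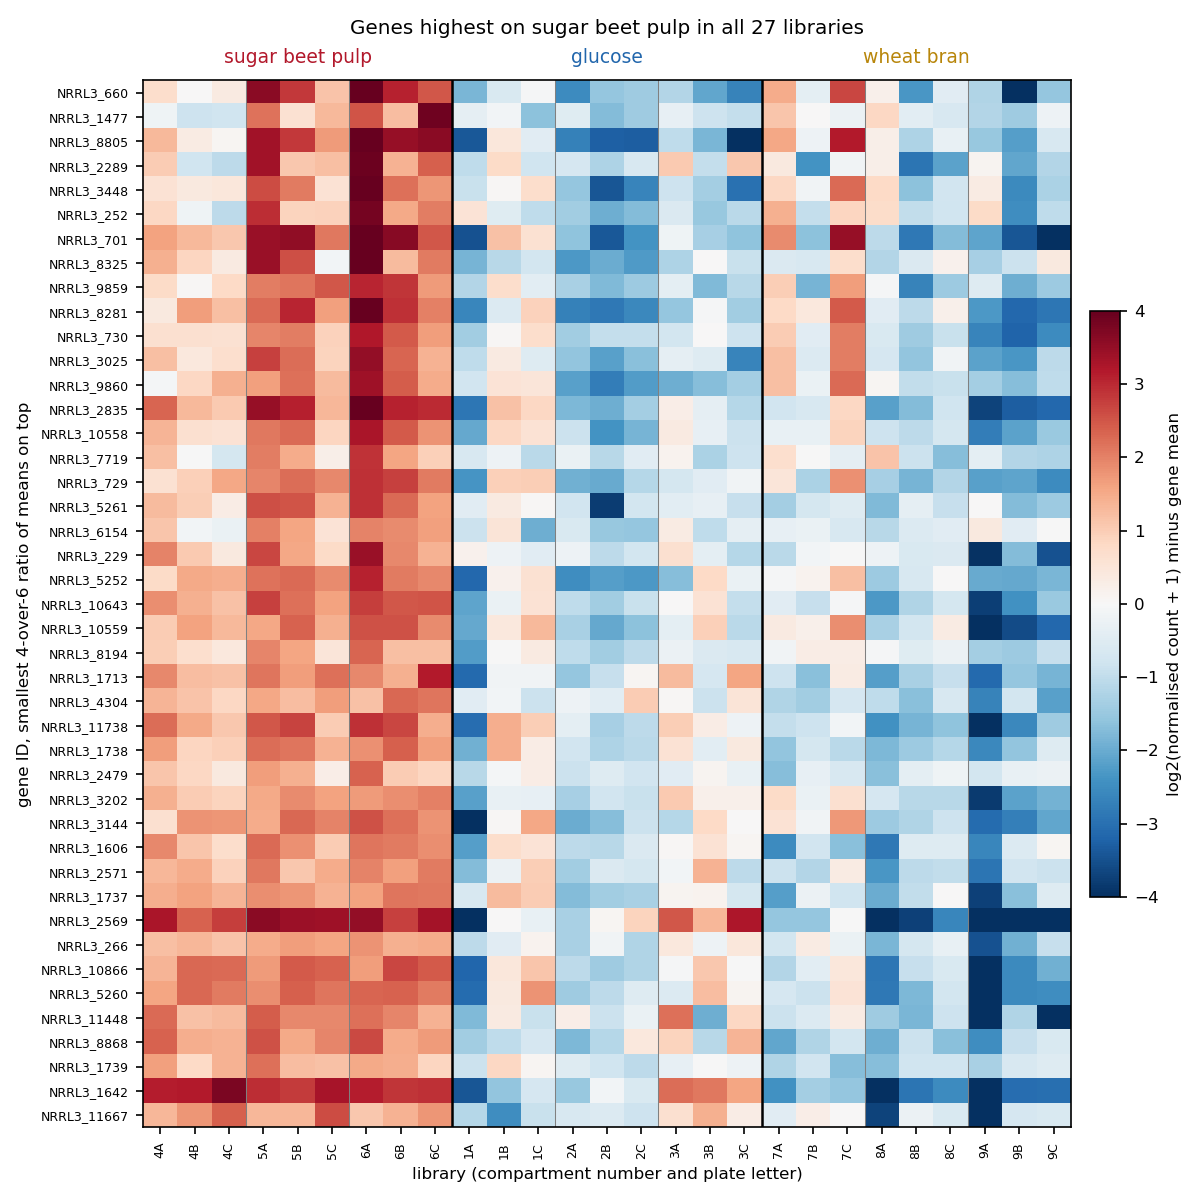
Each row is one of the 43 genes and each column one of the 27 libraries, grouped by substrate and compartment. Colour shows log2(normalised count + 1) minus the gene's mean over the libraries, so red is above and blue below that mean. The rows are ordered by the ratio of compartment 4 to 6, with the smallest on top; the upper rows are palest in compartment 4 among the sugar beet pulp columns, and on wheat bran most red cells lie in compartment 7.

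The size of the substrate difference varied with the plate. The median fold over glucose was 7.53 on plate A, 4.24 on plate B and 3.21 on plate C, and the median fold over wheat bran was 9.35, 7.95 and 3.54 in the same order. Sugar beet pulp was at least 3-fold above both other substrates for 40 members on plate A, 33 on plate B and 11 on plate C, and 8 members met this on every plate. When the rule was applied to 2 plates only, the substrate means of the plate left out were not used in the choice. That plate did enter the size factors and the list of the largest counts. It also entered the mean of at least 50 that set the comparison genes below. With plate A left out, 27 genes met the rule, and sugar beet pulp was highest on plate A for 26 of them and at least 3-fold highest for 21, against 45.4% and 1.14% of the 8014 genes with a mean of at least 50 on sugar beet pulp. With plate B left out, 44 of 44 genes were highest on sugar beet pulp on plate B and 27 by at least 3-fold, where 37.3% and 0.824% of all such genes were. With plate C left out, 55 of 62 genes were highest there and 9 by at least 3-fold, where 35.7% and 0.200% of all such genes were. No p-value goes with these counts, since the list was proposed with all plates known.

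The values at the edge of the rule show no gap. Just inside the 3-fold line lay NRRL3_2479, NRRL3_9860 and NRRL3_7719, at 3.02, 3.04 and 3.06 times the higher of the other substrates. Just outside lay NRRL3_10865, NRRL3_8697 and NRRL3_11827, at 2.97, 2.92 and 2.80 times. The ID of NRRL3_10865 precedes that of the member NRRL3_10866, and its levels were 12189 ± 2357 normalised counts on sugar beet pulp, against 4100 ± 890 on glucose and 1469 ± 606 on wheat bran (SD, n = 3 plates). At the line of 50 normalised counts, NRRL3_5261 at 53.2 was inside and NRRL3_3883 at 47.5 outside.

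The rule averaged the 3 compartments of a substrate, so it did not set which of them was higher. It did use their values, and a member could reach the 3-fold line through some compartments only, so the size of a difference within a substrate was not independent of the choice. On means, compartment 4 was at least 3 times the higher other substrate for 10 members, compartment 5 for 38 and compartment 6 for 41. The p-values below come from a fit over all genes, and the shares of all genes beside the members' counts describe genes that were not selected in this way. Among the sugar beet pulp compartments, most members had their lowest level in compartment 4. Compartment means increased in the order 4, 5, 6 for 37 of 43 members, and 16 members were highest in compartment 6 on each of the 3 plates. Here and below, no share of all genes is given for counts of the order of compartments or of the same order on all plates. Of the 43, 5 passed the test between compartments 4 and 6, all lower in compartment 4, where 0.682% of the 10990 genes tested were called lower and 0.728% higher (edgeR quasi-likelihood F-test, Benjamini-Hochberg adjusted p under 0.05 over all genes). No member was called higher in compartment 4. For 0 of these 5 members was compartment 4 at least 3 times the higher other substrate, and for 3 it was not above it. The median log2 fold change of compartment 4 over 6 was -1.09 for the members and 0.02 for all genes tested, and 40 of 43 members were negative, against 48.6% of all genes. The 3 compartment 4 libraries lay below all 3 compartment 6 libraries for 25 members, against 11.1% of all genes, and above them for 1 member, against 10.3%. These and the later counts of libraries that lay apart are on TMM-scaled log2 CPM with a prior count of 2; the 1 member was NRRL3_1642, whose normalised counts in the 2 compartments overlapped.

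NRRL3_1477 had the smallest adjusted p of these 5. It stood at 16.3, 9.96 and 10.3 normalised counts on plates A, B and C in compartment 4, at 86.6, 29.0 and 46.8 in compartment 5, and at 112, 45.2 and 289 in compartment 6. All compartment 6 libraries were above all compartment 4 libraries, and the levels in compartment 4 lay in the range of its glucose libraries, which ran from 4.81 to 17.1. Compartment means were 12.2 in compartment 4, 54.1 in compartment 5 and 148 in compartment 6, so the gene met the level and the 3-fold line through compartment 6, and this difference is partly a condition of its choice. Its log2 fold change of compartment 4 over 6 was -3.60 (SE 0.56, edgeR quasi-likelihood adjusted p = 0.0013), lower in compartment 4 on 3 of 3 plates.

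NRRL3_660 showed the largest fold between these compartments. It stood at 117, 73.0 and 93.7 normalised counts in compartment 4, at 900.5, 517 and 162 in compartment 5 and at 3154, 621 and 407 in compartment 6, on plates A, B and C. The groups did not overlap, while the compartment 6 libraries themselves spread widely. The log2 fold change of compartment 4 over 6 was -3.63 (SE 0.77, edgeR quasi-likelihood adjusted p = 0.0160). Its mean in compartment 4 was 94.6, below its wheat bran mean of 103. In compartments 5 and 6 the means were 527 and 1394. The gene thus met the 3-fold line through these, and the difference between compartments 4 and 6 is partly a condition of its choice. The other 3 called members had log2 fold changes from -2.82 to -1.64, each lower in compartment 4 on 3 of 3 plates.

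Not every member followed this order. NRRL3_1642 stood at 1207, 1231 and 1862 normalised counts in compartment 4, against 1207, 992 and 1042 in compartment 6, on plates A, B and C, and its log2 fold change of compartment 4 over 6 was 0.35 (SE 0.41, edgeR quasi-likelihood adjusted p = 0.73). The other 2 members with a positive log2 fold change, of 0.44 and 0.07, did not pass either. Compartment 5 lay between the others for most members. Between compartments 4 and 5 edgeR called 0 members, against 0.118% of all genes higher and 0.00910% lower. At an unadjusted p under 0.05 in edgeR were 13 members, against 576 of all 10990 genes. DESeq2 called 1 member, against 0.347% of all genes. The compartment 4 libraries lay below all compartment 5 libraries for 14 members, against 7.53% of all genes, and above them for 0, against 6.41%. Between 5 and 6 both tools called 0 members and 0 of all genes. At an unadjusted p under 0.05 in edgeR were 2 members, against 142 of all 10990 genes. There the libraries lay apart for 1 member, lower in compartment 5, against 2.55% of all genes lower and 1.69% higher. In the test among all 3 compartments 3 members passed, against 0.874% of all genes. That count was 20 with the sugar beet pulp libraries alone, against 10.5% of all genes, 1 without the plate block, against 0.391%, and 0 on leaving out plate A or plate C.

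The number of calls between compartments 4 and 6 depended on the spread used and on the plates. It was 28 when only the 9 sugar beet pulp libraries were fitted, where 19.7% of all genes were called in either direction. DESeq2 gave 13, against 3.00% of all genes, scaling by library size alone 3, against 0.983%, and the fit without the plate block 2, against 0.710%. Leaving out plate A gave 1, against 0.380%, leaving out plate B gave 3, against 0.687%, and leaving out plate C gave 0 for members and for all genes. All of these member calls were lower in compartment 4. The call of NRRL3_660 was lost on leaving out any plate, at adjusted p from 0.078 to 0.17, and that of NRRL3_1477 without plate C.

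**Figure D3:**
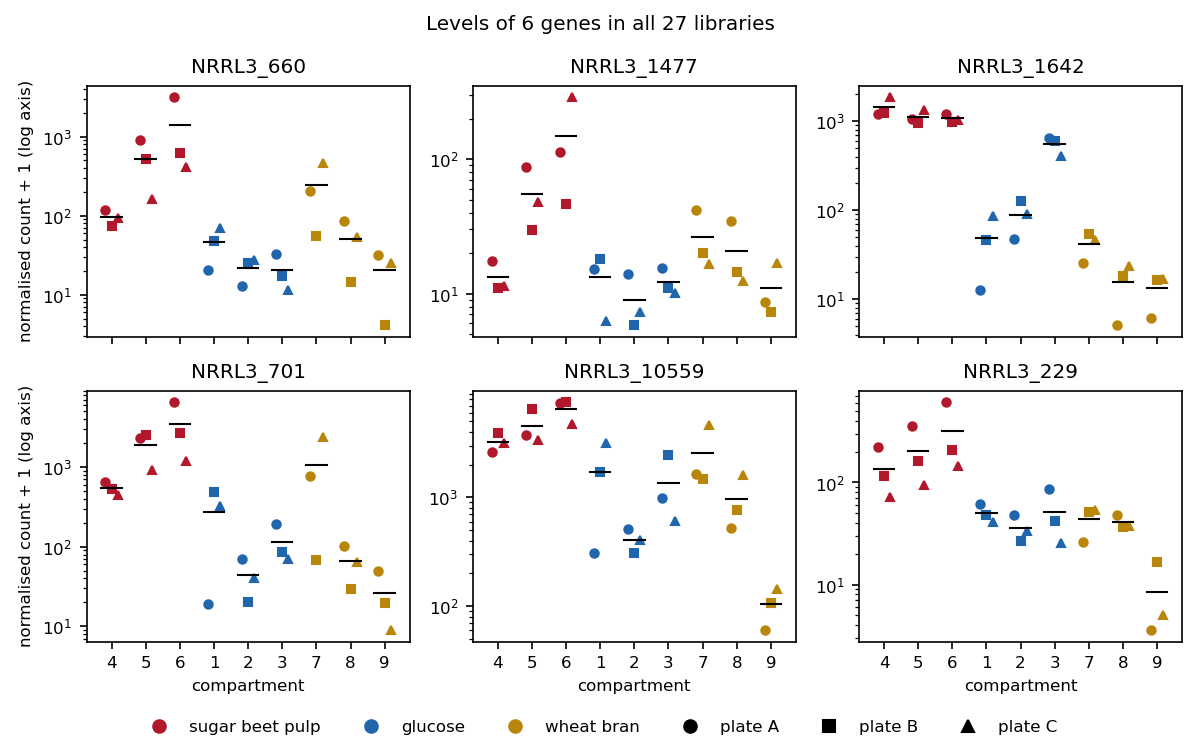
Normalised count + 1 on a log axis for 6 of the genes, in the 9 compartments, with a symbol per plate, colours for substrates and a bar at the mean of 3 plates. NRRL3_660 and NRRL3_1477 are lower in compartment 4 than in 6, NRRL3_1642 is higher in glucose compartment 3 than in 1, and NRRL3_701, NRRL3_10559 and NRRL3_229 have their lowest mean in wheat bran compartment 9.

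On wheat bran, most of these genes were highest in compartment 7. The rule used the wheat bran mean, which a low compartment 9 reduces, so differences from compartment 9 were not independent of the choice. With the wheat bran average taken over compartments 7 and 8 only, 33 of the 43 genes met the rule. Of the 43, 36 had their highest wheat bran mean in compartment 7, 26 of them on all 3 plates, and 31 had means that decreased over compartments 7, 8 and 9. Between compartments 7 and 9, 25 members passed, all higher in compartment 7, against 21.2% of all genes called higher and 18.3% called lower (edgeR quasi-likelihood F-test, adjusted p under 0.05 over 10990 genes). The median log2 fold change of compartment 7 over 9 was 2.01 for the members and 0.06 for all genes. It was positive for 39 of 43 members, against 52.0% of all genes. The 3 compartment 7 libraries lay above the 3 compartment 9 libraries for 27 members, against 24.5% of all genes, and below them for 0, against 19.6%, and 31 members were higher in compartment 7 on every plate.

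NRRL3_10559 had the smallest adjusted p. It stood at 1639, 1470 and 4597 normalised counts in compartment 7, at 518, 772 and 1612 in compartment 8 and at 59.1, 106 and 144 in compartment 9, on plates A, B and C. Each compartment 9 library was below every other wheat bran library. Its log2 fold change was 4.71 (SE 0.68) for compartment 7 over 9, with an edgeR quasi-likelihood adjusted p of 2.7e-05, and 3.25 (SE 0.64) for compartment 8 over 9, with an adjusted p of 0.0012. Both calls were kept on leaving out each plate in turn. Means were 2569, 968 and 103 in compartments 7, 8 and 9, against 4775 on sugar beet pulp. Low levels in compartment 9 thus helped the gene to meet the 3-fold line over wheat bran. Both differences are partly a condition of its choice.

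NRRL3_701 showed the largest fold. It stood at 781, 67.0 and 2365 normalised counts in compartment 7, at 102, 28.2 and 63.5 in compartment 8 and at 48.8, 18.7 and 7.97 in compartment 9, on the same plates. All compartment 7 libraries were above all compartment 9 libraries, and plate B stood far below the other plates in compartment 7. The log2 fold change of compartment 7 over 9 was 5.54 (SE 1.16, edgeR quasi-likelihood adjusted p = 8.0e-04), and without plate C it was 3.38 with an adjusted p of 0.097. In sugar beet pulp compartment 4 the gene had 645, 527 and 445, so that wheat bran compartment 7 was above sugar beet pulp compartment 4 on plates A and C.

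NRRL3_229 was called between compartments 8 and 9. It stood at 47.1, 35.6 and 36.4 normalised counts in compartment 8, against 2.57, 15.6 and 3.99 in compartment 9, a log2 fold change of 2.52 (SE 0.68, edgeR quasi-likelihood adjusted p = 0.0107). On leaving out plate C it was 2.18 with an adjusted p of 0.13. The 3 compartment 9 libraries held 7 counts of it in total. In all, 6 of 43 members were called higher in compartment 8 than in 9, a share close to the 12.9% of all genes, and 0 were called lower, against 10.8% of all genes. The libraries of compartment 8 lay above those of 9 for 12 members, against 18.3% of all genes, and below them for 0, against 16.4%. Between compartments 7 and 8 edgeR called 0 members and 0 of all genes. At an unadjusted p under 0.05 in edgeR were 18 members, against 620 of all 10990 genes. DESeq2 called 3 members, all higher in compartment 7, against 0.101% of all genes. The libraries of compartment 7 lay above those of 8 for 11 members, against 2.67% of all genes, and below them for 0, against 3.00%. The median log2 fold change of compartment 7 over 8 was 1.12 for the members and 0.02 for all genes, and 30 members were higher in compartment 7 on every plate.

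Any difference among compartments 7, 8 and 9 was called for 25 members and for 32.4% of all genes. In the compartment 9 libraries the TMM factors, which correct library size for composition, were 0.480 to 0.667, against 0.749 to 1.54 in the other 24, and the 20 most abundant genes took 35.1% to 42.9% of the counts, against 14.7% to 40.1%. Summed over the 3 compartment 9 libraries, members had 2 to 702 counts, with fewer than 10 for 7 of them. The part of these library differences in the members' values was not tested. On leaving out plate C, 10 members (23.3%) were called between compartments 7 and 9, against 8.70% of all genes. In that fit 1 member (2.33%) was called between 8 and 9, against 1.41%, and 3 (6.98%) among all 3 compartments, against 3.47%. On leaving out plate B, 3 members, or 6.98%, were called between 8 and 9, below the 21.0% of all genes.

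**Figure D4:**
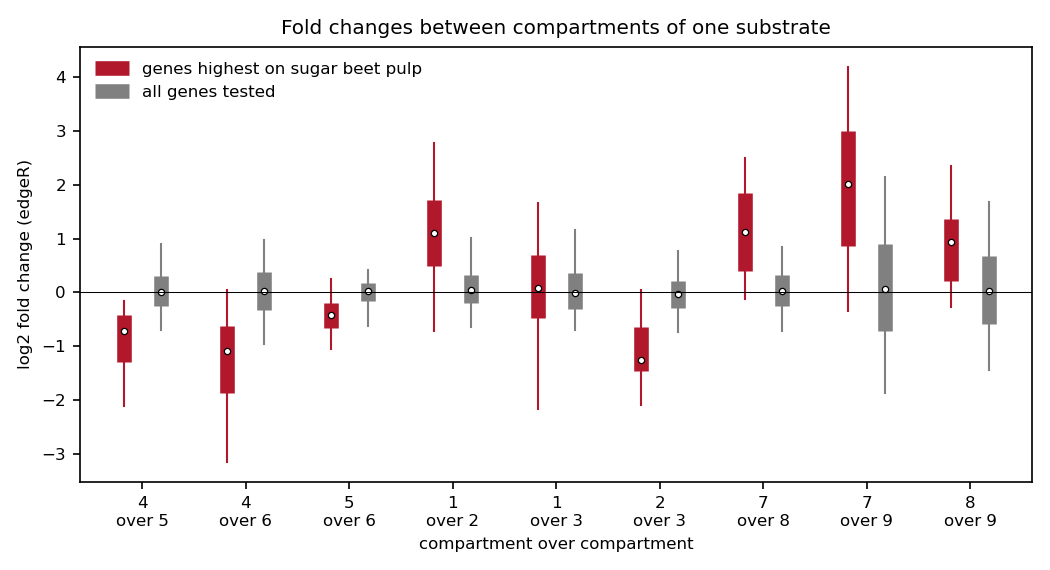
Log2 fold changes between compartments of the same substrate (edgeR) for the 43 genes in red and for all 10990 genes tested in grey, with the white point at the median, the thick bar from the 25th to the 75th percentile and the thin line from the 5th to the 95th. The red medians are -1.09 for compartment 4 over 6, 2.01 for 7 over 9 and -1.27 for 2 over 3, while all grey medians lie between -0.04 and 0.06.

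On glucose, compartment 2 had the lowest mean of the 3 for 35 of 43 members. A single member passed a test there. NRRL3_1642 stood at 11.7, 44.9 and 85.5 normalised counts in compartment 1, at 46.9, 125 and 89.4 in compartment 2 and at 640, 593 and 409 in compartment 3, on plates A, B and C. The compartment 3 libraries were above all other glucose libraries of this gene and below all its sugar beet pulp libraries, whose lowest was 945. Its sugar beet pulp mean of 1209 was less than 3 times its compartment 3 mean of 547. The gene met the 3-fold line over glucose through compartments 1 and 2, with means of 47.4 and 87.1. The differences of compartments 1 and 2 from 3 are thus partly a condition of its choice. Its log2 fold change was -3.72 (SE 0.47, edgeR quasi-likelihood adjusted p = 6.7e-04) for compartment 1 over 3 and -2.79 (SE 0.45, adjusted p = 0.0316) for compartment 2 over 3. Of all genes, 0.0182% were called lower and 0.00910% higher for compartment 1 over 3, and 0.00910% lower and 0 higher for 2 over 3. Both calls were lost with the 9 glucose libraries alone and on leaving out plate C. That of compartment 2 over 3 was also lost on leaving out plate B, without the plate block, with library size scaling and without the compartment 9 libraries.

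NRRL3_2569 had a similar order of means without passing. It stood at 28.5, 644 and 519 normalised counts in compartment 1, at 258, 673 and 1196 in compartment 2 and at 3566, 1612 and 6113 in compartment 3, on plates A, B and C. On each plate compartment 3 was the highest. The sugar beet pulp mean of 5952 was less than 3 times the compartment 3 mean of 3764. This gene, too, met the 3-fold line over glucose through compartments 1 and 2, so its order is partly a condition of its choice. Its log2 fold change of compartment 1 over 3 was -3.33 (SE 0.76, edgeR quasi-likelihood adjusted p = 0.17). In sugar beet pulp compartment 4 it had 6159, 3266 and 4364, so that the compartment 3 library of plate C was above its compartment 4 libraries of plates B and C.

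For the other members the level in glucose compartment 1 depended on the plate. The 43 genes took 0.0248% of the counts in compartment 1 of plate A, against 0.263% on plate B and 0.217% on plate C. The median log2 difference of compartment 1 over 3 over the members was -1.75 on plate A, 0.691 on plate B and 0.837 on plate C, with 41 of 43 members lower in compartment 1 on plate A and 15 and 14 on plates B and C. Compartment 2 against 3 had 1 sign on all plates, with medians of -1.13, -1.41 and -0.803 on plates A, B and C. The 3 compartment 2 libraries lay below the 3 compartment 3 libraries for 22 members, against 3.99% of all genes, and above them for 0, against 4.38%. For compartment 1 over 3 they lay apart lower for 4 members and higher for 1, against 4.70% and 5.81% of all genes. Between compartments 1 and 2 edgeR called 0 members, against 0.0182% of all genes higher and 0.0364% lower. At an unadjusted p under 0.05 in edgeR were 21 members, against 837 of all 10990 genes. DESeq2 called 6 members, all higher in compartment 1, against 1.04% of all genes. Leaving out plate A gave 3 calls in edgeR, all higher in compartment 1, against 0.262% of all genes. The libraries of compartment 1 lay above those of 2 for 8 members and below them for 1, against 6.41% and 5.64% of all genes. Among the 3 glucose compartments 1 member was called, against 0.118% of all genes. That count was 5 when plate A was left out, against 0.480% of all genes, 4 for plate B, against 2.51%, and 0 for plate C. Leaving out plate B also gave 7 calls of compartment 1 over 3, or 16.3% of members, near the 15.4% of all genes.

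The differences within sugar beet pulp and within wheat bran were set side by side, since these sections share no library. In 37 of 43 members the log2 fold change was negative for compartment 4 over 6 and positive for 7 over 9, a combination held by 32.1% of all genes tested. Across the 43 members the sizes of these differences had a Pearson r of -0.29 and a Spearman rho of -0.30, and across all 10990 genes r was -0.42. Of the 5 members called between compartments 4 and 6, 2 (40.0%) were among the 25 called between 7 and 9, of which they make up 8.00%. One of these 2 was NRRL3_660. The overlap was no larger than the share of all 43 members called between 7 and 9, which was 58.1%. No overlap of the calls over all genes is given. Across members, the difference of compartment 1 over 3 on glucose had an r of -0.68 and a rho of -0.72 with that of compartment 4 over 6, while r was -0.09 across all genes. Genes are not independent replicates, all values come from the same 3 colonies, and no p-value is given for these correlations.

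**Figure D5:**
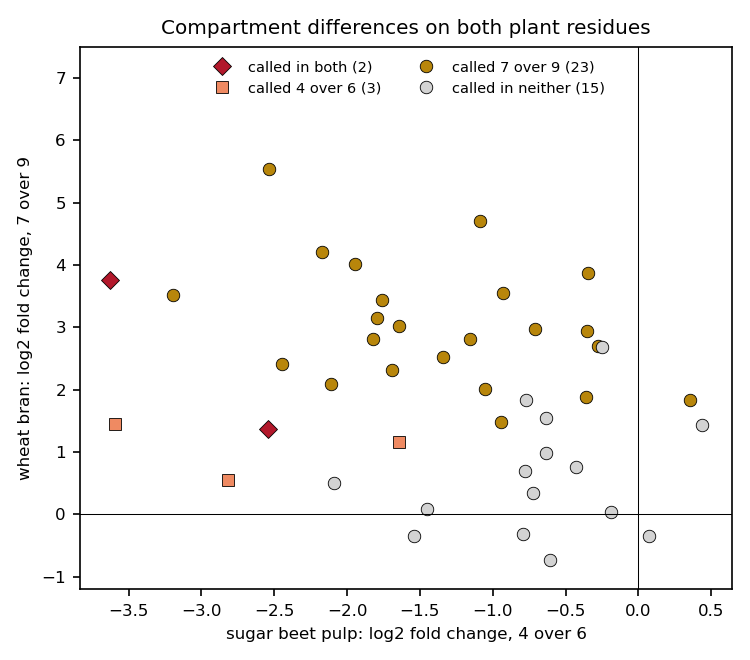
Each point is one of the 43 genes, with its log2 fold change of sugar beet pulp compartment 4 over 6 on the horizontal axis and of wheat bran compartment 7 over 9 on the vertical axis, coloured by whether it was called. In the upper left lie 37 of the 43, and 15 were called in neither comparison.

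In wheat bran compartment 7 the mean of 11 members was above that in sugar beet pulp compartment 4. This was so for 1 member in glucose compartment 3 and for 1 in glucose compartment 1. Compartment 6 was at least 3-fold above every glucose and wheat bran compartment for 24 members, compartment 5 for 8 and compartment 4 for 1. These are counts of means with no test, since the rule used the substrates' levels.

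Some members had consecutive IDs, which the rule did not use. There were 5 runs with 11 members in all, or 25.6% of the 43, and the only run of 3 was NRRL3_1737, NRRL3_1738 and NRRL3_1739. No such percent for other sets of genes is given beside it. Whether consecutive IDs mark neighbouring genes is not given in the sources used here, nor is whether counting used strand, so reads of overlapping neighbours may be shared. NRRL3_1737 averaged 270 ± 22.6 normalised counts on sugar beet pulp, against 80.5 ± 25.6 on glucose and 39.9 ± 24.0 on wheat bran (SD, n = 3 plates). NRRL3_1738 averaged 797 ± 170, 240 ± 60.2 and 96.4 ± 33.0 in the same order of substrates, and NRRL3_1739 averaged 274 ± 75.9, 88.3 ± 22.8 and 51.0 ± 11.3.

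None of these 3 genes passed a test between compartments, and their log2 fold changes of compartment 4 over 6 were -0.43, -0.72 and 0.07. The genes with the IDs on either side of the run were also highest on sugar beet pulp without meeting the rule, at 2.38-fold over glucose and 2.32-fold over wheat bran for NRRL3_1736 and at 2.38-fold and 2.82-fold for NRRL3_1740. Of the 10 genes beside the 5 runs, 5 were highest on sugar beet pulp, as were 34.7% of the 11824 genes with any count, and 3 were at least 2-fold above both other substrates, against 1.23%. These 3 were NRRL3_1736 and NRRL3_1740, beside the same run, and a gene beside another run that averaged 18.4 normalised counts on sugar beet pulp. The other 4 runs were pairs.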

How the data were processed

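RNA sequencing of 27 libraries was used as 1 table of whole-number read counts per gene, deposited by the authors without normalization. Per the submitters' processing notes, HTSeq and DESeq2 were used, with no version or role named. The sources used here give no aligner, genome build, annotation or strand setting. All 27 columns matched a label, and 0 other columns held sample values. Members and tests were chosen with earlier results of these data known.

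Differences between compartments were tested with edgeR 4.0.16 in R 4.3.3 (quasi-likelihood F-test, TMM factors, filterByExpr, 10990 genes, 16 residual degrees of freedom), with 9 compartment groups from all 27 libraries and the plate as a block. Tests were two-sided, with Benjamini-Hochberg adjustment over all genes within a comparison and a threshold of 0.05. Standard errors are the log2 fold change over the square root of F. The fit was also run on simulated counts with the same spread for all genes and no plate effect, unlike these data. The outcome is not given here.

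The pairing by plate comes from the labels, since the 9 libraries of a plate are from 1 colony. Deviations from compartment means correlated with a mean r of 0.131 over 108 same-plate pairs, of which 62 were over 0.1. No 2 libraries of a compartment agreed within sampling noise, with a chi-square per degree of freedom of at least 29.2. Named genes were the 4 highest in level and in fold, those beside the 3-fold line, the most extreme calls with 1 direction on all plates (at most 2 IDs per direction in a comparison, since no table names them), and the run of 3 consecutive IDs. NRRL3_2569, NRRL3_3883, NRRL3_1736, NRRL3_1740 and, between compartments 4 and 6, NRRL3_1642 were named after their values were seen. Alternatives were DESeq2 1.42.0, other scalings, no filter, the section's libraries alone, no block, and each plate left out.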

Additional observations from a re-analysis of the deposited data

How the results depend on the processing

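The number of genes meeting the rule was 43, and 45 with TMM scaling, with all 43 among them. It was 118 with library size alone, 117 at 2-fold and 18 at 4-fold. With a plate left out it ran from 27 to 62. Reading the exclusion for wheat bran by section averages, chosen after seeing the data, gave 17. Taking the wheat bran average over compartments 7 and 8 only, also added after seeing the data, gave 33. Below are the numbers of members called that moved by over 1.5 times, with the percent of all genes called in the same fit in brackets. Among compartments 4, 5 and 6, against 3 members, DESeq2 gave 5 (1.84%), the section's libraries alone 20 (10.5%) and the fit without the replicate block 1 (0.391%), with 0 to 2 on leaving out a plate (0.00907% to 0.375%). For compartment 4 over 5, against 0, DESeq2 gave 1 (0.347%) and the section alone 12 (5.01%). For 4 over 6, against 5, DESeq2 gave 13 (3.00%), the section alone 28 (19.7%), library size alone 3 (0.983%) and no replicate block 2 (0.710%), with 0 to 3 on leaving out a plate (0 to 0.687%). Among compartments 1, 2 and 3, against 1, DESeq2 gave 6 (1.02%) and the section alone 0 (0), with 0 to 5 without a plate (0 to 2.51%). For 1 over 2, against 0, DESeq2 gave 6 (1.04%), with 0 to 3 without a plate (0 to 0.262%). For 1 over 3, against 1, DESeq2 gave 2 (0.313%) and the section alone 0 (0), with 0 to 7 without a plate (0 to 15.4%). For 2 over 3, against 1, library size alone, the section alone, no replicate block and leaving out the compartment 9 libraries (added after seeing the data) each gave 0 for members and all genes, with 0 to 2 without a plate (0 to 0.0633%). Among compartments 7, 8 and 9, against 25, leaving out a plate gave 3 to 23 (3.47% to 28.4%). For 7 over 8, against 0, DESeq2 gave 3 (0.101%). For 7 over 9, against 25, leaving out a plate gave 10 to 26 (8.70% to 35.3%). For 8 over 9, against 6, library size alone gave 13 (26.6%) and the section alone 13 (22.9%), with 1 to 6 without a plate (1.41% to 21.0%). The replicate block changed no other count by over 1.5 times. The cause of these changes was not tested.

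With library size scaling the all-gene median for compartment 7 over 9 was 0.84 on the log2 scale, against 0.06 with TMM, and that of the members 2.80, against 2.01. For 4 over 6 these medians were -0.28, against 0.02, and -1.40, against -1.09. Alternatives were run for the calls of NRRL3_660, NRRL3_1477, NRRL3_1642 on glucose, NRRL3_701, NRRL3_10559 and NRRL3_229; none of these changed direction, and 14 repeats lost the call, 6 of them without plate C. Compartment 9, with the fewest counts, limits the precision of the lowest members.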
